A study of Mus musculus with 12 samples.

Results

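The 6 genes described here, Acta2, Myh11, Des, Actg2, Tagln and Cnn1, encode proteins of the smooth muscle contractile apparatus and its cytoskeleton. They were chosen by name, with earlier results of these data known. Their symbols were matched to Ensembl identifiers with the GENCODE M21 annotation. The count tables list 46078 genes, of which 15823 had enough counts to be tested, and all 6 genes were among those tested. RNA was sequenced from epithelium scraped off the proximal ileum of male C57BL/6 mice, in 12 libraries made from total RNA. The animals were gavaged every 4 days for 28 days, from 28 to 56 days of age, with sesame oil (vehicle) or with 3, 10 or 30 µg/kg TCDD. TCDD is a dioxin that activates the aryl hydrocarbon receptor (AhR). Each of the 4 groups had 3 libraries, described as biological replicates, with no deletion or transgene in any of them. Replicate numbers were assigned in accession order and do not pair animals between groups. Libraries with the same replicate number did share a read index in all 4 groups.

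Smooth muscle cells shorten when filaments of smooth muscle myosin slide along filaments of actin, and the force is carried to the cell surface through dense bodies, dense plaques and intermediate filaments. In the small intestine these cells form the muscularis propria and the muscularis mucosae, send thin strands into the villus core, and line the walls of arterioles. None of these layers belongs to the epithelium. Smooth muscle genes are often controlled by serum response factor (SRF) with its partner myocardin, which acts on a short element called the CArG box.

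Promoter sequence was found for 3 of the 6 genes, and that of Acta2 and Cnn1 is shown because these windows held a match to a motif searched. Each run is the 250 bases before the transcript start, on the sense strand, from RefSeq on GRCm38.p6. The Acta2 run is at chr19:34255374-34255623 (minus strand), and capitals mark 2 CArG-like boxes, in which 1 of the central 6 bases is G or C in place of A or T. The Cnn1 run is at chr9:22099003-22099252 (plus strand), and capitals mark the AhR core motif GCGTG read on the opposite strand.
Acta2: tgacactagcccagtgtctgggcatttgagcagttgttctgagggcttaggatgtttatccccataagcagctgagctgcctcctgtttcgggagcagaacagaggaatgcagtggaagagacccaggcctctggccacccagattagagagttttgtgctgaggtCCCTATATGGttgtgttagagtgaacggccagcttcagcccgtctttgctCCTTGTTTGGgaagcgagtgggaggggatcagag
Cnn1: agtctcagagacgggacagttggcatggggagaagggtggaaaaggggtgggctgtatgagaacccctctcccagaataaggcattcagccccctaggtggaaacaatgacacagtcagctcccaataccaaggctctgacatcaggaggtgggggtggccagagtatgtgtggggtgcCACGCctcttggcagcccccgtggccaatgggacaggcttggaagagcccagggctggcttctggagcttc

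Relative to the RefSeq start, the Acta2 matches lay at -84 to -75 and at -34 to -25, and the Cnn1 match at -71 to -67. The GENCODE genes given below start farther upstream, so part of the Acta2 and of the Cnn1 run lies inside the gene. For Acta2 that part holds both marked boxes. The Des window, at chr1:75360042-75360291 (plus strand), held none of the motifs searched. Of 32851 promoter windows of the same length, 7.24% held a CArG-like box, 1.47% held a full CArG box and 28.2% held GCGTG, each searched on both strands. A match describes the letters in these windows only.

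Gene counts totalled between 11695887 and 22180274 per library. The scrapings carried the markers of their labelled tissue, with Krt20, a keratin of mature enterocytes, at 1702 to 2443 CPM and Vil1, an actin bundler of the brush border, at 3031 to 4478 CPM (counts scaled to library size with TMM factors). Against that, the 6 smooth muscle genes together held between 0.00125% and 0.0178% of the gene counts of a library. In these bulk samples, fewer smooth muscle cells and less RNA per smooth muscle cell cannot be told apart.

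The smooth muscle transcripts were scarce, and their levels differed far more between libraries of the same dose than those of most genes. The summed level of the 6 genes was 179, 50.2 and 73.2 CPM in vehicle replicates 1 to 3, and 13.7, 57.8 and 77.2 CPM at 3 µg/kg. At 10 µg/kg the sum was 24.7, 31.3 and 19.8 CPM, and at 30 µg/kg it was 82.1, 113 and 30.9 CPM. The highest library, vehicle replicate 1, therefore lay 13.1-fold above the lowest, replicate 1 of 3 µg/kg. The 3 libraries of 10 µg/kg lay close together and below all 3 vehicle libraries, whereas every other pair of groups overlapped.

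**Figure D1:**
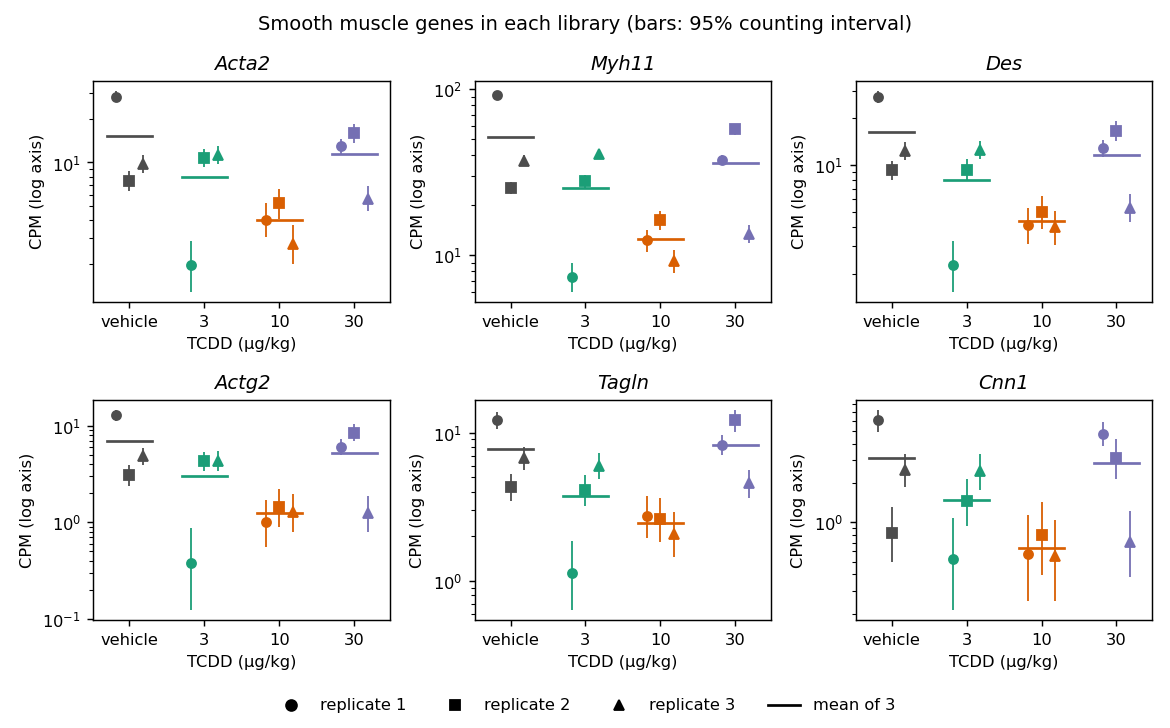
CPM (log axis) of each of the 6 genes in the 12 libraries, by TCDD dose (vehicle, 3, 10 and 30 µg/kg), with 1 point per library, its 95% counting interval as a bar and the mean of 3 libraries as a horizontal line. The 10 µg/kg points sit together in every panel, while vehicle replicate 1 stands high and 3 µg/kg replicate 1 stands low.

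Myh11 encodes the smooth muscle myosin heavy chain, the motor of the thick filament. The gene (ENSMUSG00000018830) lies at chr16:14194535-14291372 on the minus strand of GRCm38, with 7599 exonic bases, and it had the highest counts of the 6. Its level was 92.6, 25.3 and 36.9 CPM in the vehicle libraries and 7.40, 27.9 and 40.6 CPM at 3 µg/kg. It was 12.2, 16.2 and 9.19 CPM at 10 µg/kg, and 37.3, 57.1 and 13.5 CPM at 30 µg/kg. Only the 10 µg/kg libraries all lay below the lowest vehicle library, and replicate 3 of 30 µg/kg lay among them. The means were 51.6 ± 35.9, 25.3 ± 16.8, 12.5 ± 3.51 and 36.0 ± 21.8 CPM (SD, n = 3) from vehicle to 30 µg/kg.

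Acta2 and Actg2 encode the vascular (alpha) and enteric (gamma) smooth muscle actins, which form the thin filament on which the myosin moves. Acta2 (ENSMUSG00000035783, chr19:34241090-34255590, minus strand) was at 28.5, 7.45 and 9.83 CPM in vehicle and at 1.96, 10.7 and 11.3 CPM at 3 µg/kg. At 10 µg/kg it was at 4.03, 5.22 and 2.76 CPM, and at 30 µg/kg at 12.9, 15.9 and 5.64 CPM. The libraries of 10 µg/kg were below all of vehicle and of 30 µg/kg for this gene, and 3 µg/kg replicate 1 was below them. Group means were 15.2 ± 11.5, 7.99 ± 5.23, 4.00 ± 1.23 and 11.5 ± 5.28 CPM (SD, n = 3).

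Actg2 (ENSMUSG00000059430, chr6:83512905-83536265, minus strand) had the widest range of the 6 genes, 34.4-fold from its lowest to its highest library. It was at 13.0, 3.10 and 4.83 CPM in vehicle and at 0.377, 4.32 and 4.34 CPM at 3 µg/kg, where the lowest value rests on 5 counts, with an exact 95% counting interval of 0.122 to 0.881 CPM. It was at 1.01, 1.45 and 1.29 CPM at 10 µg/kg, and at 6.08, 8.53 and 1.26 CPM at 30 µg/kg. Replicate 3 of 30 µg/kg was thus at the level of the 10 µg/kg libraries, apart from the other two of its dose. Group means were 6.97 ± 5.27, 3.01 ± 2.28, 1.25 ± 0.224 and 5.29 ± 3.70 CPM (SD, n = 3).

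Both actins share most of their coding sequence with each other and with Acta1, and reads that aligned to several places were not counted, so part of their reads is missing by an unknown amount. Actg2 held 31.3% of the summed Acta2 and Actg2 counts in vehicle replicate 1 (Wilson 95% interval 28.0 to 34.7) and 34.9% in replicate 2 of 30 µg/kg (29.5 to 40.7). The share was 16.1% in 3 µg/kg replicate 1 (7.09 to 32.6) and 18.3% in 30 µg/kg replicate 3 (12.5 to 25.9). The share in the other 8 libraries was 20% to 33.0%. It was lowest in 3 µg/kg replicate 1 and 30 µg/kg replicate 3, and the interval of the former overlapped those of the high libraries. Without molecular identifiers, these intervals reflect counting error alone.

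Tagln encodes transgelin (SM22), an actin-binding protein of the smooth muscle thin filament, and Cnn1 encodes calponin 1, which binds actin and inhibits the myosin ATPase. Tagln (ENSMUSG00000032085, chr9:45929619-45936058, minus strand) was at 12.1, 4.31 and 6.73 CPM in vehicle and at 1.13, 4.09 and 5.99 CPM at 3 µg/kg. It was at 2.74, 2.61 and 2.08 CPM at 10 µg/kg, and at 8.27, 12.1 and 4.54 CPM at 30 µg/kg. Tagln differed from the other 5 genes in that a 30 µg/kg library, replicate 2, was its highest, just ahead of vehicle replicate 1. Its group means were 7.70 ± 3.97, 3.74 ± 2.45, 2.48 ± 0.347 and 8.30 ± 3.77 CPM (SD, n = 3). The annotation places Pcsk7 and Gm48529 over it on the plus strand, and without a stated strand setting reads of these genes cannot be told apart from its own.

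Cnn1 (ENSMUSG00000001349, chr9:22099216-22109630, plus strand) was the scarcest of the 6. It was at 6.04, 0.833 and 2.52 CPM in vehicle and at 0.528, 1.46 and 2.47 CPM at 3 µg/kg. It was at 0.576, 0.798 and 0.551 CPM at 10 µg/kg, and at 4.75, 3.11 and 0.712 CPM at 30 µg/kg. Vehicle replicate 2, with 18 counts, was barely above replicate 2 of 10 µg/kg, with 11 counts, and their counting intervals overlapped (0.494 to 1.32 against 0.398 to 1.43 CPM). Group means were 3.13 ± 2.65, 1.49 ± 0.969, 0.642 ± 0.136 and 2.86 ± 2.03 CPM (SD, n = 3).

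Des encodes desmin, the intermediate filament protein that links dense bodies and plaques in muscle cells. The gene (ENSMUSG00000026208, chr1:75360329-75368579, plus strand) was at 27.3, 9.21 and 12.3 CPM in vehicle and at 2.26, 9.34 and 12.5 CPM at 3 µg/kg. It was at 4.10, 5.01 and 3.98 CPM at 10 µg/kg, and at 12.8, 16.5 and 5.31 CPM at 30 µg/kg. As for Acta2, the 10 µg/kg libraries lay below every library of vehicle and of 30 µg/kg. The group means were 16.3 ± 9.67, 8.04 ± 5.24, 4.36 ± 0.560 and 11.5 ± 5.71 CPM (SD, n = 3). An antisense gene, Gm15179, overlaps Des, and the same limit on strand applies.

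Per kilobase of exon, the levels of the genes could be compared with each other. In vehicle, Acta2 and Myh11 were nearly level at 6.95 ± 5.25 and 6.79 ± 4.73 CPM per kb (SD, n = 3), followed by Actg2 at 4.48 ± 3.39, Des at 4.34 ± 2.57, Tagln at 3.87 ± 2.00 and Cnn1 at 1.14 ± 0.970 CPM per kb. The means of neighbours from Acta2 to Tagln differed by less than the SD between libraries, while the gap between Tagln and Cnn1 was larger than the SD of either. The genes vary together, so that SD does not measure their differences within a library. In vehicle replicates 1 to 3, Myh11 held 24.8%, 24.4% and 24.3% of the summed CPM per kb of the 6 genes, against 17.0%, 14.6% and 15.5% for Actg2. None of these differences was tested. Within a library the makeup was steadier than the total. Acta2 held 22.3% to 29.8% of the summed CPM per kb of the 6 genes over the 12 libraries, Myh11 19.5% to 28.0%, and Des 13.8% to 18.9%. The shares of Actg2 (6.97% to 17.2%), Tagln (12.4% to 25.1%) and Cnn1 (2.23% to 7.23%) varied more, against the 13.1-fold range of the summed level itself.

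The spread between libraries of one dose was the main feature of these genes. The coefficient of variation (CV, SD over mean) of the 6 genes ranged from 51.6% to 84.8% in vehicle, from 65.2% to 75.8% at 3 µg/kg and from 45.4% to 71.1% at 30 µg/kg. At 10 µg/kg it ranged from 12.8% to 30.8%, with a highest library at most 1.90-fold above the lowest. Counting error alone would give Myh11 a CV of 3.22% in vehicle, where its CV was 69.7%, and would give Cnn1 32.7% at 10 µg/kg, where its CV was 21.2%. In vehicle the spread of Myh11 was therefore well above counting error, while at 10 µg/kg the spread of Cnn1 was not above it. At that dose Actg2 (CV 17.9% against 23.35% from counting) and Tagln (14.0% against 16.7%) were also below counting error. Des (12.8% against 12.5%) was near it, while Myh11 (28.0% against 7.43%) and Acta2 (30.8% against 13.2%) were above it.

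Set against all genes tested, these 6 were among the most variable. The biological CV that edgeR estimated around the group means was 41.9% for Tagln, 45.5% for Des, 50.4% for Acta2, 50.8% for Myh11, 59.2% for Cnn1 and 62.5% for Actg2, against a median of 15.6% over all 15823 genes. The genes stood between the 95.3th and the 99.0th percentile of that measure. They were chosen with earlier results of these data known, so this rank is a description and not a test. It was not matched for expression level. Dose accounted for 38.3% to 54.3% of the variance of their log2 CPM, near the 38.7% of the median gene, with 3 libraries per group.

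**Figure D2:**
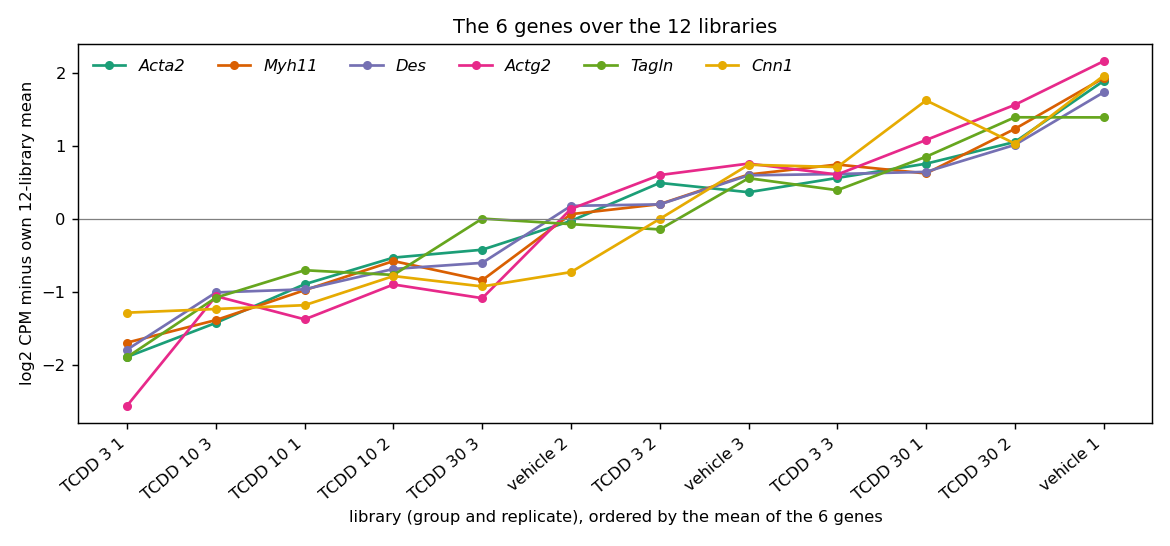
Log2 CPM of each of the 6 genes minus its own mean over the 12 libraries, with 1 line per gene and libraries ordered from the lowest to the highest mean of the 6 genes. The lines run together from 3 µg/kg replicate 1, the lowest library in 6 of 6 genes, to vehicle replicate 1, the highest in 5 of 6.

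The 6 genes varied together. Over the 12 libraries, Pearson's r between the log2 CPM of 2 genes was between 0.892 (Tagln and Cnn1) and 0.990 (Myh11 and Des) for the 15 pairs, with a median of 0.951. Spearman's rho was between 0.881 and 0.993. In two-sided permutation tests with 100000 resamples, the p-values of r were between 1e-05, the smallest they can give, and 9e-05, or 1.5e-05 to 9e-05 after BH adjustment over 15 pairs. Those of rho were between 1e-05 and 0.00025, or 2.14e-05 to 0.00025 adjusted. The permutations did not keep the dose groups apart, and the genes were chosen with earlier results of these data known. These p-values are therefore given as a description. Without the 2 libraries farthest from the median, r was between 0.881 and 0.987. On residuals from the dose means, r was between 0.866 and 0.986, so the genes varied together among libraries of the same dose as well. When the libraries were ordered by the mean z-score of the 6 genes, the widest step, 0.57, was between the lowest library and the next. The step below the highest library was 0.56, and that from 30 µg/kg replicate 3 up to vehicle replicate 2 was 0.49. Whether the libraries form separate clusters was not tested.

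The comparison of each dose with vehicle asked whether TCDD altered the smooth muscle signal of the scrapings. At 10 µg/kg all 6 genes were estimated lower than in vehicle, with a median log2 change of -1.99, against -0.0096 for all genes tested. The log2 changes were -2.04 for Myh11 (SE 0.64), -1.93 for Acta2 (SE 0.63), -2.46 for Actg2 (SE 0.81), -1.63 for Tagln (SE 0.52), -2.27 for Cnn1 (SE 0.81) and -1.90 for Des (SE 0.56). None of the 6 passed the test, in which a gene was called at a BH-adjusted p under 0.05 over all genes and a change of at least 1.5-fold. The adjusted p of edgeR's quasi-likelihood test was between 0.151 for Des and 0.211 for Cnn1, and 0.613% of all genes were called in that comparison. Unadjusted, all 6 had a p under 0.05 in that test, between 0.00533 and 0.0156, as did 7.88% of all genes in the lower direction. All 6 were lower in 3 of 3 libraries than in any vehicle library, as were 11% of all genes tested. The 6 genes vary together, so these counts do not stand for 6 separate observations.

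The size of the difference at 10 µg/kg depended on vehicle replicate 1, the highest library of the series. Without it, the log2 change from vehicle to 10 µg/kg was -1.30 for Myh11, -1.10 for Acta2, -1.65 for Actg2, -1.14 for Tagln, -1.36 for Cnn1 and -1.29 for Des, with adjusted p between 0.262 and 0.397 in edgeR. Without that library, 1 of the 6 genes had an unadjusted p under 0.05 in edgeR, against all 6 with it. The direction held without each of the 12 libraries in turn. The call depended on the low-count filter, since with no filter 5 of 6 genes were called lower, all but Cnn1, with adjusted p between 0.0172 and 0.0854. In that fit 28360 genes were tested and 215 were called. In limma-voom, 4 of the 6 genes had an unadjusted p under 0.05, and adjusted p was between 0.237 and 0.433.

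At 3 µg/kg the estimates were also below vehicle, but within the spread of the libraries. The log2 changes lay between -1.17 for Actg2 (SE 0.72) and -0.91 for Acta2 (SE 0.59), with a median of -1.01 against 0.0017 for all genes. The adjusted p in edgeR was between 0.472 and 0.617, no unadjusted p was under 0.05 (as it was for 11.4% of all genes), and 0.228% of all genes were called. This estimate rested on vehicle replicate 1 and on 3 µg/kg replicate 1, the highest and the lowest library. Without vehicle replicate 1 the log2 changes were between -0.54 for Tagln and -0.098 for Acta2, and without 3 µg/kg replicate 1 they were between -0.68 for Actg2 and -0.47 for Acta2. Replicates 2 and 3 of 3 µg/kg were within the range of vehicle for Myh11, Acta2, Actg2, Cnn1 and Des.

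At 30 µg/kg no difference from vehicle was detectable with this spread. The log2 changes were -0.53 for Myh11 (95% interval -1.83 to 0.77), -0.42 for Acta2 (-1.68 to 0.84), -0.42 for Actg2 (-1.94 to 1.10), 0.10 for Tagln (-0.94 to 1.13), -0.12 for Cnn1 (-1.61 to 1.37) and -0.51 for Des (-1.65 to 0.63). Adjusted p in edgeR was between 0.623 and 0.948, and no unadjusted p was under 0.05, while 21.6% of all genes had such a p and 3.97% were called at this dose. The intervals were wide enough that they do not show the levels to be alike. Without vehicle replicate 1 the estimates of Myh11, Acta2, Actg2, Cnn1 and Des turned positive, at 0.21, 0.41, 0.40, 0.79 and 0.092.

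**Figure D3:**
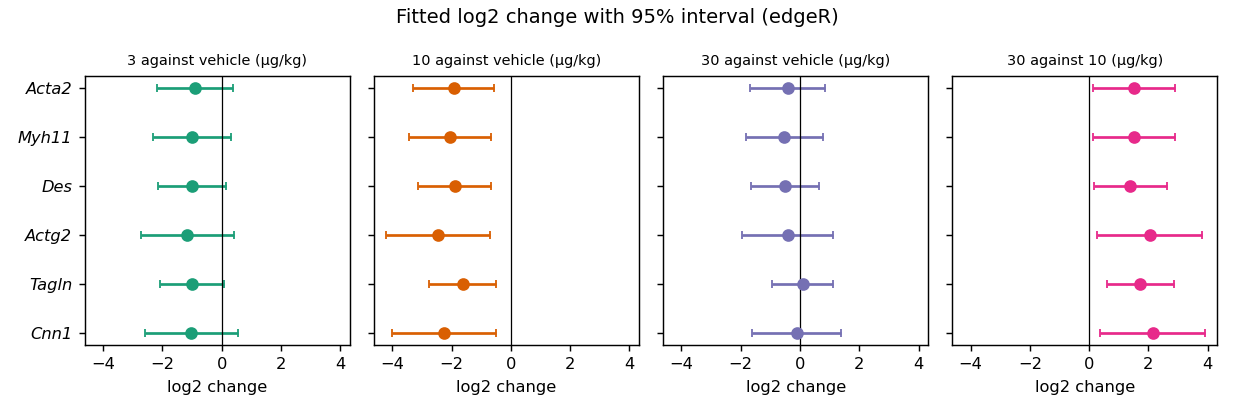
Fitted log2 change of each of the 6 genes with its 95% interval, in 4 panels for 3, 10 and 30 µg/kg against vehicle and for 30 against 10 µg/kg. The intervals lie wholly below 0 at 10 µg/kg against vehicle and wholly above 0 for 30 against 10 µg/kg, and include 0 in the other 2 panels, while no gene passed the test after adjustment.

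Between TCDD doses, the estimates at 30 µg/kg were above those at 10 µg/kg. The log2 difference was 1.51 for Myh11 (SE 0.64), 1.51 for Acta2 (SE 0.64), 2.04 for Actg2 (SE 0.82), 1.73 for Tagln (SE 0.53), 2.15 for Cnn1 (SE 0.82) and 1.39 for Des (SE 0.57). Adjusted p in edgeR was between 0.0817 for Tagln and 0.195 for Acta2, none was called, and 2.77% of all genes were. All 6 had an unadjusted p under 0.05, between 0.00621 and 0.0340, as did 11.1% of all genes in the higher direction. Acta2, Tagln and Des, 3 of the 6, were higher in 3 of 3 libraries at 30 than at 10 µg/kg without overlap, as were 14.7% of all genes. This comparison shares the 10 µg/kg libraries with the one against vehicle, so both rest on the same low and narrow group. Without 3 µg/kg replicate 1, Tagln was called here with an adjusted p of 0.0337. For 10 against 3 µg/kg the log2 differences were between -1.30 and -0.62 and the adjusted p was 0.9997 for each gene, with 0.158% of all genes called. For 30 against 3 µg/kg they were between 0.49 and 1.11, with adjusted p from 0.187 to 0.673 and 4.87% of all genes called.

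The dose order of the group means was not monotone. The means of Myh11, Acta2, Actg2, Cnn1 and Des ran from vehicle through 30 and 3 µg/kg down to 10 µg/kg, and Tagln differed only in that 30 µg/kg stood ahead of vehicle. No pair of neighbours in that order differed by a called amount. A slope over the dose rank gave log2 changes of -0.66 to 0.0022 over the whole range, with a median of -0.58 that turned to 0.29 without vehicle replicate 1, and adjusted p between 0.575 and 0.999 in edgeR, while 3.29% of all genes were called for it. When the 4 groups were tested for any difference, 4 of the 6 genes had an unadjusted p under 0.05, as did 24% of all genes. Adjusted p was there between 0.117 and 0.233, none of the 6 was called, and 6.78% of all genes were.

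The other genes of smooth muscle followed the 6 genes only in part. Of 57 further genes listed for the contractile apparatus, dense plaques and intermediate filaments, ion channels and calcium handling, and transcriptional control, 55 were tested, while Pln and Casq2 were too scarce. None was called in either direction at any dose against vehicle. The median log2 change of the 55 was -0.18 at 3, -0.40 at 10 and -0.049 at 30 µg/kg, against 0.0017, -0.0096 and -0.016 for all genes. At 10 µg/kg, 44 of the 55 were estimated lower than vehicle, and 16 of the 55 had an unadjusted p under 0.05 in the lower direction (7.88% of all genes) and 2 in the higher (7.99%).

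Their agreement with the 6 genes went with their level. Pearson's r of a gene's log2 CPM with the mean of the 6 scaled genes, over the 12 libraries and given here as a description, was over 0.8 for 14 of the 55, between 0.5 and 0.8 for 15 and under 0.5 for 26. Of 36 genes with a mean under 20 CPM, 26 had an r over 0.5, and of 10 with a mean of at least 50 CPM, none did. Mylk, the myosin light chain kinase, was at a mean of 284 CPM with an r of 0.046, and Tpm1, a tropomyosin, at 246 CPM with an r of 0.11. Tln1 (talin, 218 CPM, r -0.43) and Ldb3 (a Z-line and dense body adaptor, 145 CPM, r 0.037) were similar in this respect. Mylk stood at 355, 281 and 291 CPM in vehicle and at 308, 287 and 319 CPM at 3 µg/kg, a narrow range in the same libraries in which Myh11 varied widely. At 10 µg/kg Mylk stood at 261, 289 and 291 CPM. At 30 µg/kg it stood at 243, 229 and 250 CPM, below every vehicle library (log2 -0.36, SE 0.10, adjusted p 0.056 in edgeR, not called). The cells that these reads came from were not tested.

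By list, the mean of the contractile apparatus genes had an r of 0.961 and a rho of 0.986 with the mean of the 6. That of the dense plaque and intermediate filament genes had 0.930 and 0.944, and that of the ion channel and calcium genes 0.927 and 0.944. The transcriptional control genes had 0.630 and 0.636, and 0.371 within doses. Single genes did not all follow, since r in the contractile list ran from -0.48 for Ppp1r12a to 0.97 for Myl9. In a mean of log2 levels the most variable genes weigh most, and the summed contractile level was 941 to 1146 CPM. Srf, which encodes the factor that binds the CArG box, was at 29.4 to 40.7 CPM with an r of 0.24. Myocd, its smooth muscle partner, was at 0.0755 to 1.11 CPM with an r of 0.74, which rests on very few counts. Both were chosen after their values were seen, for their link to the element shown in the Acta2 run. Between doses of TCDD, Myl6, a myosin light chain found in most cells and likewise chosen after its values were seen, was called higher at 30 than at 10 µg/kg (log2 0.66, SE 0.091, adjusted p 0.00159 in edgeR). For 30 against 3 µg/kg, 2 of the 18 contractile genes were called higher, and 4.87% of all genes were called. These were Myl6 (log2 0.66, SE 0.091, adjusted p 0.000917 in edgeR) and Ppp1r14a (log2 2.09, SE 0.58, adjusted p 0.0428). Ppp1r14a had a mean count of 9.75.

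Among 11191 genes with a mean count of at least 50, the 12 with the highest r to the mean of the 6 were mostly from the same lists. They were Synm (0.983), Myl9 (0.973), Clmp (0.924), Flna (0.923), Cald1 (0.918), Tpm2 (0.915), Cacna2d1 (0.910), Csrp1 (0.907), Rgs5 (0.898), Synpo2 (0.898), Ppp1r12b (0.883) and Prelp (0.873), of which 8 were on a smooth muscle list, Rgs5 was on the pericyte list and Clmp, Cacna2d1 and Prelp were on none. The median r of the genes ranked was -0.047, and 8 genes had an r over 0.9. The values share the same 12 libraries, and no p is given. Synm, which encodes the intermediate filament protein synemin, stood at 17.6, 4.40 and 5.73 CPM in vehicle, and at 0.755, 4.67 and 5.70 CPM at 3 µg/kg. It stood at 1.44, 1.96 and 1.29 CPM at 10 µg/kg and at 4.90, 8.62 and 2.13 CPM at 30 µg/kg, with the same libraries high and low as for desmin. Synm was estimated at a log2 of -2.56 (SE 0.71) for 10 µg/kg against vehicle, and edgeR gave an adjusted p of 0.126. Myl9, the regulatory light chain of smooth muscle myosin, was at -2.19 (SE 0.69), with an adjusted p of 0.165 in the same test.

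**Figure D4:**
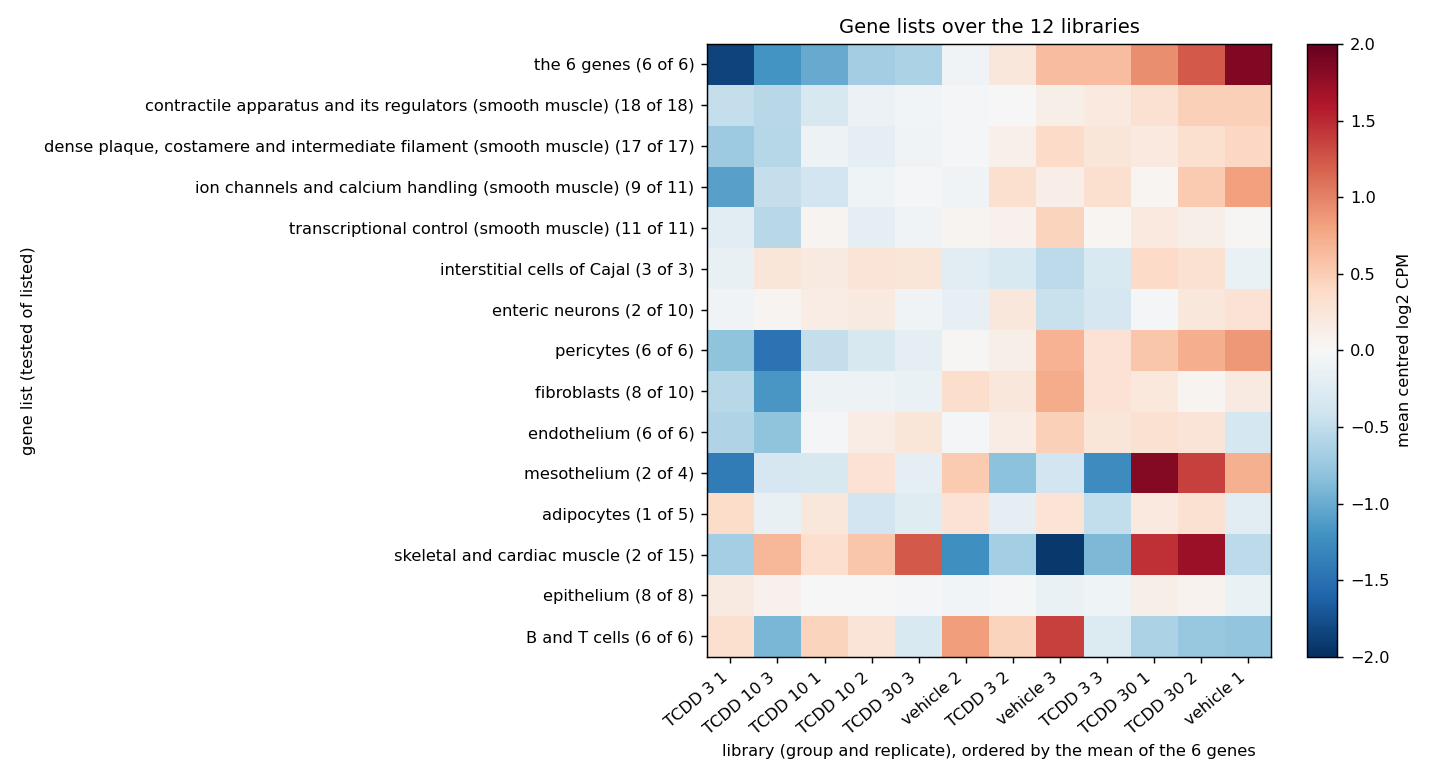
Mean centred log2 CPM (color scale from -2 to 2) of the 6 genes and of 14 gene lists in the 12 libraries, ordered as in the plot of single genes, with the number of genes tested of those listed. The contractile, dense plaque, ion channel and pericyte rows run from low to high with the 6 genes, and the epithelium row stays near 0.

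Markers of other cells of the gut wall were read in the same libraries. Of the pericyte genes, 6 of 6 were tested, none was called against vehicle, and the mean of the list had an r of 0.912 and a rho of 0.972 with the 6 genes. Their summed level was 23.0 to 48.8 CPM in vehicle, 10.4 to 26.5 at 3, 6.92 to 14.2 at 10 and 13.4 to 30.1 CPM at 30 µg/kg, and none of the 6 was at 0 in any library. For Rgs5, a regulator of G protein signaling in mural cells, the log2 estimate at 10 µg/kg was -2.76 (SE 0.62), and edgeR gave an adjusted p of 0.0740. It stood at 34.4, 10.9 and 14.2 CPM in vehicle and at 2.88, 3.92 and 2.02 CPM at 10 µg/kg, with no overlap. Between TCDD doses, Cspg4, 1 of the 6 pericyte genes, was called higher at 30 than at 3 µg/kg (log2 1.51, SE 0.42, adjusted p 0.0435 in edgeR). In that comparison 4.87% of all genes were called. The part of vessel wall cells in the levels of the 6 genes was not tested.

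The fibroblast list, 8 of 10 tested, had an r of 0.673 with the 6 genes, and the endothelial list, 6 of 6 tested, had 0.482. The summed fibroblast level was 386 to 409 CPM in vehicle, 301 to 323 at 3, 275 to 302 at 10 and 298 to 324 CPM at 30 µg/kg. The sum was thus below vehicle at each dose, and most of it was Fbln1, with a mean of 232 CPM. Col1a1 and Dcn, which encode a collagen chain and decorin of connective tissue, were estimated at a log2 of -0.996 (SE 0.42) and -1.37 (SE 0.40) for 10 µg/kg, and edgeR gave adjusted p of 0.278 and 0.143. None of the genes tested in these lists was called against vehicle.

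Lists for cells that lie between or beside the muscle layers were read next. Of 10 enteric neuron genes, 2 were tested, and the other 8 summed to between 0.377 and 2.31 CPM per library. Of the mesothelial genes 2 of 4 were tested, with a summed level of 0.0755 to 2.76 CPM. Their r with the 6 genes was 0.559, and the lowest value was again in 3 µg/kg replicate 1. Lrrn4 of this list, with a mean count of 7.25, was called higher at 30 than at 3 µg/kg (log2 4.98, SE 1.35, adjusted p 0.0381 in edgeR). Kit, which marks interstitial cells of Cajal and also mast cells, rose at 10 µg/kg (log2 0.95, SE 0.17, adjusted p 0.0259 in edgeR) and at 30 µg/kg (log2 1.12, SE 0.17, adjusted p 0.00211), while Ano1, a chloride channel of the same cells, was at 0.94 (SE 0.24) at 10 µg/kg and 0.29 (SE 0.25) at 30 µg/kg and Etv1 at -0.40 (SE 0.36) and 0.41 (SE 0.34), neither called. These 3 genes, all tested, summed to 10.1 to 26.9 CPM with an r of -0.173 with the 6 genes. The lists of neurons and adipocytes had r of 0.0665 and -0.0926, and the last had 1 of 5 genes tested, Cidec, at 37.0 to 67.1 CPM.

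The means of the epithelial, lymphoid and pancreatic lists had r with the 6 genes between -0.545 and 0.265. The 8 epithelial genes summed to between 10230 and 13910 CPM, none was called against vehicle, and their r with the 6 genes was -0.545. The r of the B and T cell list, 6 of 6 tested and none called, was -0.251. Pnlip, Ctrb1 and Cela2a, the 3 pancreatic acinar genes tested of 6, were called lower at 3 and at 30 µg/kg. The log2 changes of -7.34, -5.58 and -7.01 at 3 µg/kg depend on the prior count because counts there were at or near 0. At 30 µg/kg they were -4.12, -2.14 and -7.01, the last with the same limit. At 10 µg/kg the genes were also estimated lower, at -1.73, -1.61 and -2.19, and were not called. Their summed level was at most 5.19 CPM and its r with the 6 genes was 0.265.

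Clock genes differed between libraries of one dose as well. The mean of the 9 clock genes, all tested, had an r of -0.104 with the 6 genes, and -0.486 within doses. A clock score, the mean log2 level of Dbp, Tef, Nr1d1, Nr1d2, Per3 and Ciart minus that of Arntl, Npas2 and Clock, was -2.72, 2.88 and 2.60 in the vehicle libraries and 2.53, -1.85 and -2.06 at 3 µg/kg. It was 2.32, -2.54 and -2.91 at 10 µg/kg, and 1.97, 1.32 and -1.54 at 30 µg/kg. In each group 1 library had a score of the opposite sign to the other two. That library was the highest for the summed level of the 6 genes in vehicle and the lowest at 3 and 30 µg/kg, and it lay between the others at 10 µg/kg. With the score as covariate the median log2 change of the 6 genes was -1.20, -2.16 and -0.18 at 3, 10 and 30 µg/kg against vehicle, and none was called, with adjusted p between 0.0530 and 0.120 at 10 µg/kg in edgeR.

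Striated muscle was nearly absent, apart from 1 gene. Of 15 skeletal and cardiac muscle genes, Acta1 and Mylpf were tested, and Myh1, Myh2, Myh4, Myh6 and Mb were at 0 in all libraries. Acta1, the skeletal muscle actin, was at 5.25, 2.32 and 2.00 CPM in vehicle and at 5.36, 4.67 and 3.41 CPM at 3 µg/kg. It was at 25.9, 25.8 and 41.3 CPM at 10 µg/kg, and at 122, 197 and 77.0 CPM at 30 µg/kg. Acta1 rose at 10 µg/kg (log2 3.30, SE 0.41, adjusted p 0.00168 in edgeR) and at 30 µg/kg (log2 5.38, SE 0.43, adjusted p 1.98e-05), and its r with the 6 genes was -0.017. Acta1 was thus called with dose in libraries in which neither smooth muscle actin was, and Acta2 and Actg2 were at their lowest group means at 10 µg/kg, where Acta1 was above vehicle. Of the cytoplasmic actins, Actb had a mean of 7243 CPM and Actg1 of 670 CPM, neither was called, and their r with the 6 genes was -0.21 and -0.39.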

How the data were processed

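The deposited values were raw counts of reads per Ensembl gene, 1 file per library. The submitters' processing notes name FastQC 0.11.3, Trimmomatic 0.33, TopHat2 2.1.0, SAMtools 1.2.0, HTSeq 0.6.1, DESeq and GRCm38, while the annotation release and strand setting are not given in the sources used here. Reads with no feature (25% to 30.1% of all entries of a file), ambiguous reads (0.414% to 0.728%) and reads not aligned uniquely (31.4% to 38.8%) entered neither library sizes nor tests. Of 46078 identifiers, 45229 matched GENCODE M21.

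The tests used edgeR 4.0.16, run in R 4.3.3 (filterByExpr, TMM, 1 quasi-likelihood fit of 4 groups to 12 libraries, BH adjustment over 15823 genes), and log2 CPM used a prior count of 2. The fit was tested on simulated data, drawn with the spread usual for genes of a given level. That simulation does not cover genes as variable as these 6. CPM per kb used the summed exon length of GENCODE M21. Counting intervals are exact Poisson intervals. P-values measure the spread between these libraries, which the labels call biological replicates. The 6 genes and the 18 lists were chosen with earlier results of these data known, and 1 list is not reported here. Genes named from the lists were those called against vehicle, the 2 highest and the 2 most changed of each list (mean count at least 50) where a result turns on them, with all actins, and the 12 most like the 6 genes. Other genes, those named as too scarce to test among them, were chosen after their values were seen. DESeq2 1.42.0, limma-voom (limma 3.58.1), other scalings, filters and covariates, and leaving out each library were tried as alternatives.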

Additional observations from a re-analysis of the deposited data

How the results depend on the processing

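In edgeR, 0 of the 6 genes were called in any comparison, and this count stayed at 0 in all settings for 3 and 30 µg/kg against vehicle, 10 against 3, 30 against 3 and the dose slope. For 10 µg/kg against vehicle it was 5 with no low-count filter and 1 in DESeq2 (Tagln, adjusted p 0.0418). For 30 against 10 µg/kg it was 1 with no filter, 4 with the clock score as covariate, 1 with the compared groups only, 2 in DESeq2, and 0 to 1 when each library was left out. For any difference it was 5 with no filter, 3 with the clock score and 1 in DESeq2. All genes called for 10 µg/kg against vehicle numbered 97 in the main setting, 215 with no filter, 262 in DESeq2 and 59 with the read index as covariate, and the cause was not tested. Requiring at least 10 counts in every library left 4 of the 6 genes, without Actg2 and Cnn1. The median dose slope turned from -0.58 to 0.29 without vehicle replicate 1. Among the comparisons of groups, values turned in direction only for 30 µg/kg against vehicle, where Cnn1 was at 0.14 with the clock score. Leaving out each library gave ranges there of -0.75 to 0.41 for Acta2, -1.02 to 0.21 for Myh11, -0.84 to 0.092 for Des, -0.91 to 0.40 for Actg2, -0.25 to 0.58 for Tagln and -0.77 to 0.79 for Cnn1. Tagln turned to -0.19 without vehicle replicate 2 and to -0.25 without replicate 2 of 30 µg/kg. Actg2 and Cnn1 turned to 0.0645 and 0.36 without replicate 3 of 30 µg/kg. Of the log2 changes under other settings, 755 results kept direction and side of the threshold, 15 passed it and 10 changed sign. CPM without TMM factors differed by at most 8.69%. No paired analysis was possible because the labels tie no animals together across doses. In the nearest fit, the read index was a term. Each of 3 indexes occurred once per dose, always with the same replicate number. In that edgeR fit, 0 of the 6 genes were called in any comparison (adjusted p 0.244 to 0.315 at 10 µg/kg against vehicle). Depth limits Cnn1 and Actg2 most, with as few as 7 and 5 counts in a library.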
